A study of Mus musculus with 19 samples.

Results

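The 7 genes described here, Ttr, Kl, Folr1, Otx2, Aqp1, Clic6 and Slc4a5, are genes of the choroid plexus. They were matched by symbol to 7 of the 41388 Ensembl gene identifiers in the count tables, and each passed the filter on low counts in every comparison. The counts come from RNA-seq of 16 mouse tissues and address what heterozygosity for a mutation of Wiz, a zinc finger partner of the G9a/GLP histone methyltransferases, changes in the brain. E13.5 whole brains (13.5 days post coitum) came from 3 Wiz +/+ and 3 Wiz MommeD30/+ male embryos and from 2 Wiz +/+ and 2 Wiz MommeD30/+ female embryos of heterozygous intercrosses. Cerebellums came from 3 Wiz +/+ and 3 Wiz MommeD30/+ males aged 56 days. Wiz MommeD30 arose by ENU mutagenesis in Line3, an FVB/NJ strain, and is carried in the germline. By the study's account of its strains, Line3 is homozygous for many copies of a GFP transgene driven by elements of the human α-globin locus (its promoter and HS-40), so wildtype and heterozygous animals share this background. The study calls its libraries biological replicates.

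The choroid plexus is an epithelial tissue inside the brain ventricles that secretes cerebrospinal fluid. It arises from the dorsal midline of the embryonic neural tube, first in the hindbrain and then in the forebrain, and in the adult the plexus of the fourth ventricle lies directly against the cerebellum. Its epithelium is a source of transthyretin in the cerebrospinal fluid (Ttr, a carrier of thyroxine and of the retinol binding protein) and carries folate receptor alpha (Folr1), the water channel aquaporin 1 (Aqp1), the sodium bicarbonate cotransporter Slc4a5, the intracellular chloride channel protein Clic6 and Klotho (Kl), a co-receptor of fibroblast growth factor 23. Otx2 is a homeobox transcription factor needed for choroid plexus development. Otx2 is also made outside the plexus, in the embryonic forebrain and midbrain and in precursors of cerebellar granule neurons. In whole pieces of tissue, a smaller number of plexus cells and less RNA per plexus cell cannot be told apart.

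In the GENCODE M21 annotation of GRCm38, the build named mm10 in the study's methods, all 7 are protein coding genes. Ttr spans chr18:20665280-20674321, Kl chr5:150952607-150993817 and Folr1 chr7:101858331-101870788. Otx2 spans chr14:48657677-48673819, Aqp1 chr6:55336432-55348555, Clic6 chr16:92485736-92541243 and Slc4a5 chr6:83219828-83304945. Counts were taken over exons, whose union runs from 1186 bases in Ttr to 9328 bases in Kl. Exons of Otx2 share 154 bases with the antisense gene Otx2os1, which had at most 19 counts in a library. The strand setting of the counting is not given in the sources used here, so reads over those bases cannot be assigned to either gene.

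Library totals ran from 16386029 to 50459755 counts, with the 6 cerebellums between 28365687 and 30856484. Wiz was lower in all Wiz MommeD30/+ libraries, at 118 to 130 CPM (read counts scaled to a common library total) against 182 to 200 CPM in E13.5 brains and at 66.6 to 67.7 CPM against 95.4 to 95.5 CPM in cerebellums. Summed levels of 6 cerebellar neuron markers were 4132 to 4240 CPM in cerebellums and 129 to 136 CPM in E13.5 brains. 1 cerebellum was apart from the others in the genes described here, and the libraries of the female brains differed most within a group, with counts that gave a chi-square over its degrees of freedom of 10.3 between the Wiz +/+ pair and 11.2 between the Wiz MommeD30/+ pair against 2.11 to 5.05 between other replicates.

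Co-variation between libraries was examined first. In the cerebellum, all 7 genes were lowest in the second Wiz MommeD30/+ animal. Ttr was at 1793, 1829 and 1618 CPM in the Wiz +/+ cerebellums and at 1890, 878 and 1842 CPM in the Wiz MommeD30/+ cerebellums, replicates 1 to 3. Kl was at 64.4, 67.6 and 59.6 CPM in Wiz +/+ and at 75.5, 33.0 and 60.7 CPM in Wiz MommeD30/+. Aqp1 was at 10.5, 11.8 and 9.55 CPM in Wiz +/+ and at 10.5, 4.48 and 9.37 CPM in Wiz MommeD30/+. In each of these genes the second Wiz MommeD30/+ library lay far under the other 5, which lay close together. Folr1 was at 13.9, 15.1 and 12.6 CPM against 18.2, 7.06 and 14.2 CPM, and Slc4a5 at 20.9, 22.7 and 18.2 CPM against 21.6, 14.0 and 21.3 CPM. Clic6 was at 38.3, 38.9 and 36.8 CPM against 45.1, 26.4 and 39.1 CPM. Otx2 showed the smallest gap, with 23.0, 21.4 and 21.7 CPM against 25.6, 18.8 and 23.9 CPM.

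**Figure D1:**
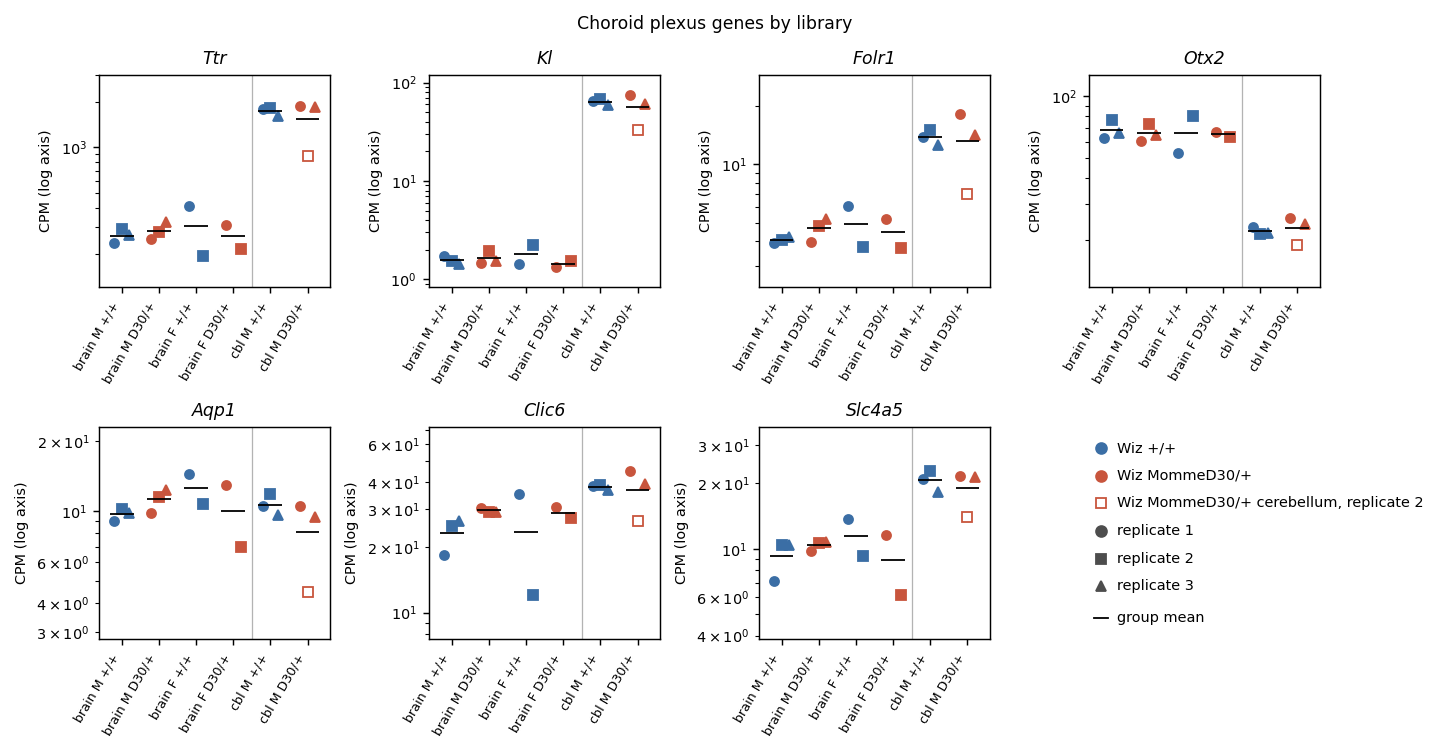
CPM on a log axis (scaled by library totals) of each of the 7 genes in E13.5 brain (M male, F female) and adult male cerebellum (cbl), 1 point a library, with a bar at each group mean; D30/+ stands for Wiz MommeD30/+. The open square, the second Wiz MommeD30/+ cerebellum, is under every other cerebellum in all 7 panels, and Otx2 is the gene whose brain values lie above all its cerebellum values.

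The level in this library was 42.8% of the median of the other 5 cerebellums for Aqp1, 48.0% for Ttr, 49.7% for Folr1 and 51.2% for Kl. It was 65.8% for Slc4a5, 67.9% for Clic6 and 81.8% for Otx2. On the log2 scale after TMM normalization the 7 differences had a median of -0.96 and ran from -1.21 to -0.29. All 7 genes were below every other cerebellum, as were 17.0% of the 15979 genes tested, and 5 of the 7 were at least 1.5-fold lower, as were 1.75% of the genes tested. Since the library was singled out after its values were seen, these are descriptions and carry no test.

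Other choroid plexus genes went the same way. Of 26 such genes, 24 were below every other cerebellum and 18 were at least 1.5-fold lower, with a median log2 difference of -0.83. Enpp2, which encodes the secreted lysophospholipase autotaxin, was at 677 CPM against 1123 to 1353 CPM in the other 5 cerebellums. Kcnj13, an inwardly rectifying potassium channel, was at 5.12 CPM against 8.88 to 11.5 CPM. Trpv4, an osmotically sensitive cation channel, was at 4.21 CPM against 6.77 to 9.99 CPM. The 2 exceptions were Slc12a2, a sodium, potassium and chloride cotransporter, at 199 CPM against 198 to 216 CPM, and the monoamine transporter gene Slc29a4, at 59.1 CPM against 58.7 to 60.9 CPM.

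Markers of other cell types differed in direction in the same library. All 6 erythroid genes that passed the filter were above every other cerebellum, as were 16% of all genes, with a median log2 difference of 1.05. Their list of 10 summed to 483 CPM in this library and to 146 to 281 CPM in the other 5. Cerebellar neuron markers had a median log2 difference of -0.02, endothelial markers -0.02 and meningeal and fibroblast markers -0.05. Other lists were lower at the median together with the plexus genes, though each held genes that went the other way. Of 8 multiciliated and ependymal genes 5 were below every other cerebellum, with a median of -0.26. Ccdc153, Rarres2 and Tmem212 of this list went the other way, at 0.59, 0.55 and 0.46, though none of the 8 was above every other cerebellum. Of 12 dorsal midline genes 8 were below every other cerebellum, with a median of -0.22. Of 7 genes of thyroid hormone and retinol handling 4 were, with a median of -0.32. The part of blood or of the extent of dissection in the low levels of the 7 genes was not tested.

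**Figure D2:**
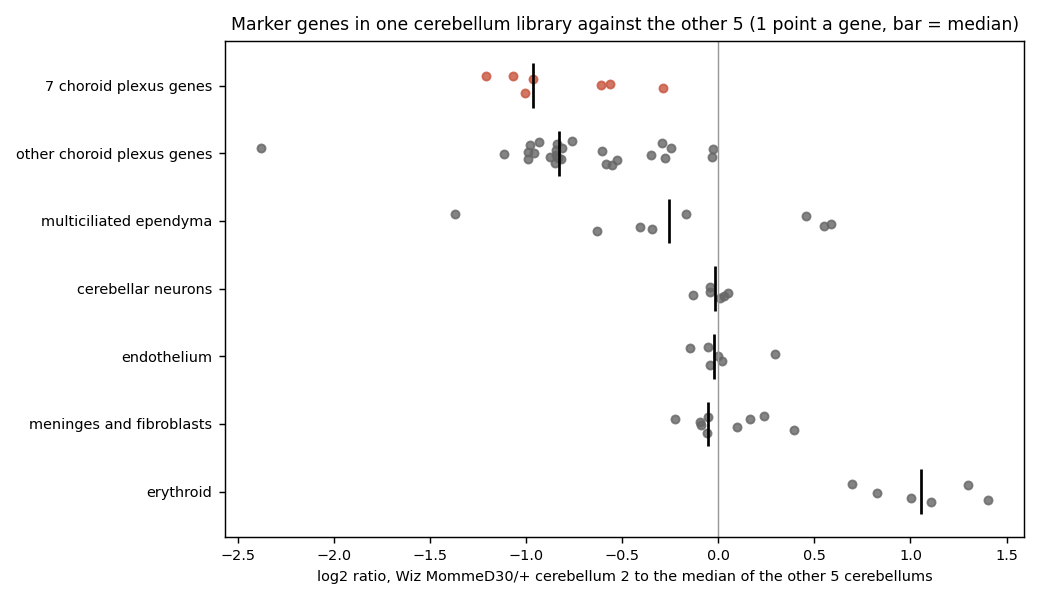
Log2 ratio (TMM-normalised CPM, prior count 2) of the second Wiz MommeD30/+ cerebellum to the median of the other 5 cerebellums, for genes of 7 lists (rows), 1 point a gene with a bar at the median. The 7 choroid plexus genes lie between -1.21 and -0.29, the 6 erythroid genes lie above 0, and the neuron, endothelial and meningeal lists centre near 0.

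Over the 6 cerebellums the 21 pairs of the 7 genes had Pearson's r of 0.73 to 0.996 on log2 CPM. In exact two-sided permutation tests 17 pairs passed an adjusted p of 0.05 (Benjamini-Hochberg over the 21 pairs), and no pair did so with Spearman's rho. Ttr with Clic6 had a rho of 1.0, the highest possible, with an exact permutation p of 0.00278 and an adjusted p of 0.0583. With 6 libraries, then, 1 pair by itself could not pass on rank. For Folr1 with Clic6, r was 0.996 (exact permutation p = 0.00278, adjusted p = 0.0146) and rho was 0.94 (exact permutation p = 0.0167). For Ttr with Kl, r was 0.98 (exact permutation p = 0.00556, adjusted p = 0.0233) and rho was 0.83 (exact permutation p = 0.0583). For Otx2 with Aqp1, the weakest pair, r was 0.73 (exact permutation p = 0.143) and rho was 0.26 (exact permutation p = 0.658). Much of this rested on 1 library. Without the second Wiz MommeD30/+ cerebellum, r ran from -0.25 for Otx2 with Aqp1 to 0.97 for Folr1 with Clic6, 20 of the 21 pairs kept a positive r, and none passed after adjustment. With the 2 libraries farthest from the median on the first gene left out, r was 0.92 for Folr1 with Clic6, 0.65 for Ttr with Kl and -0.55 for Otx2 with Aqp1. The count of pairs was also 0 without the third Wiz +/+ cerebellum, 7 without the first, 9 without the first Wiz MommeD30/+ cerebellum and 11 without the third.

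The E13.5 brains showed another pattern, in which 4 of the genes moved together and Kl and Otx2 did not follow them. Ttr was at 234, 288 and 267 CPM in male Wiz +/+ brains, at 248, 276 and 321 CPM in male Wiz MommeD30/+ brains, at 413 and 193 CPM in female Wiz +/+ brains and at 308 and 213 CPM in female Wiz MommeD30/+ brains. The highest and the lowest Ttr of all 10 brains were therefore the 2 female Wiz +/+ replicates. Otx2 in the same order was at 62.8, 76.7 and 66.4 CPM, at 60.3, 73.5 and 64.8 CPM, at 53.1 and 79.8 CPM and at 67.4 and 63.2 CPM. Here the first female Wiz +/+ brain was the lowest of 10 and the second the highest, the reverse of Ttr. Kl was low in every brain, from 1.34 to 2.23 CPM, and the second female Wiz +/+ brain was again the highest. The Kl values rest on 25 to 98 counts a library. For the library with 25 counts the exact binomial 95% interval was 0.987 to 2.25 CPM, which covers counting error only.

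The other 4 genes had spreads of 1.63-fold to 2.93-fold between the highest and the lowest brain. Folr1 ran from 3.72 to 6.08 CPM, Aqp1 from 6.97 to 14.4 CPM and Slc4a5 from 6.15 to 13.7 CPM. Each of these was highest in the first female Wiz +/+ brain and lowest in the second female Wiz MommeD30/+ brain. Clic6 ran from 12.0 CPM in the second female Wiz +/+ brain to 35.3 CPM in the first. The first female Wiz +/+ brain was above the other 9 in 5 of the 7 genes, as it was in 9.48% of all genes tested, and below them in Otx2, as in 7.47%. The second was below the other 9 in Ttr and Clic6 (17.3% of all genes) and above them in Kl and Otx2 (16.3%).

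Over the 10 brains, 8 of 21 pairs passed an adjusted p of 0.05 in two-sided permutation tests with 100000 resamples, 7 with a positive and 1 with a negative r. Ttr with Folr1 had an r of 0.93 (permutation p = 4e-05, adjusted p = 0.000735) and a rho of 0.95 (permutation p = 0.00016). Aqp1 with Slc4a5 had an r of 0.93 (permutation p = 7e-05, adjusted p = 0.000735) and a rho of 0.93 (permutation p = 0.00039). With the 2 brains farthest from the median on the first gene left out, these 2 pairs had an r of 0.87 and 0.76, and over the 6 male brains an r of 0.81 and 0.72. Ttr, Folr1, Aqp1 and Slc4a5 had an r of 0.76 to 0.93 with each other. Clic6 passed with Ttr, at an r of 0.74 (permutation p = 0.0152, adjusted p = 0.0418) that fell to 0.41 without the 2 female Wiz +/+ brains. Its rho with Ttr was 0.62 (permutation p = 0.0607).

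Over the 10 brains, Kl and Otx2 had a negative r with each of the other 5 genes. Kl with Clic6 had an r of -0.78 (permutation p = 0.0159, adjusted p = 0.0418) and a rho of -0.55 (permutation p = 0.108). The r was -0.79 with the 2 brains farthest on Kl left out and -0.26 in the 6 male brains. Ttr with Otx2 had an r of -0.51 (permutation p = 0.134, adjusted p = 0.217) and a rho of -0.19 (permutation p = 0.608). Without the 2 female Wiz +/+ brains the r of this pair was 0.47, so its sign rested on those libraries. No pair of Otx2 with the 5 genes passed after adjustment, and in the 6 male brains all had a positive r, 0.07 to 0.46. With the 2 brains farthest on the first gene left out they were also positive, 0.05 to 0.47. Over the 6 male brains alone 18 of the 21 pairs had a positive r, but no pair passed after adjustment. The number of pairs past the threshold fell to 3 without the first female Wiz +/+, the first female Wiz MommeD30/+ or the third male Wiz MommeD30/+ brain, and to 4 without the first or the second male Wiz +/+ brain. With each group's mean removed from its libraries it was 11. The 2 female libraries of each genotype then mirror each other, so a permutation test is not exact there and no conclusion is drawn.

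**Figure D3:**
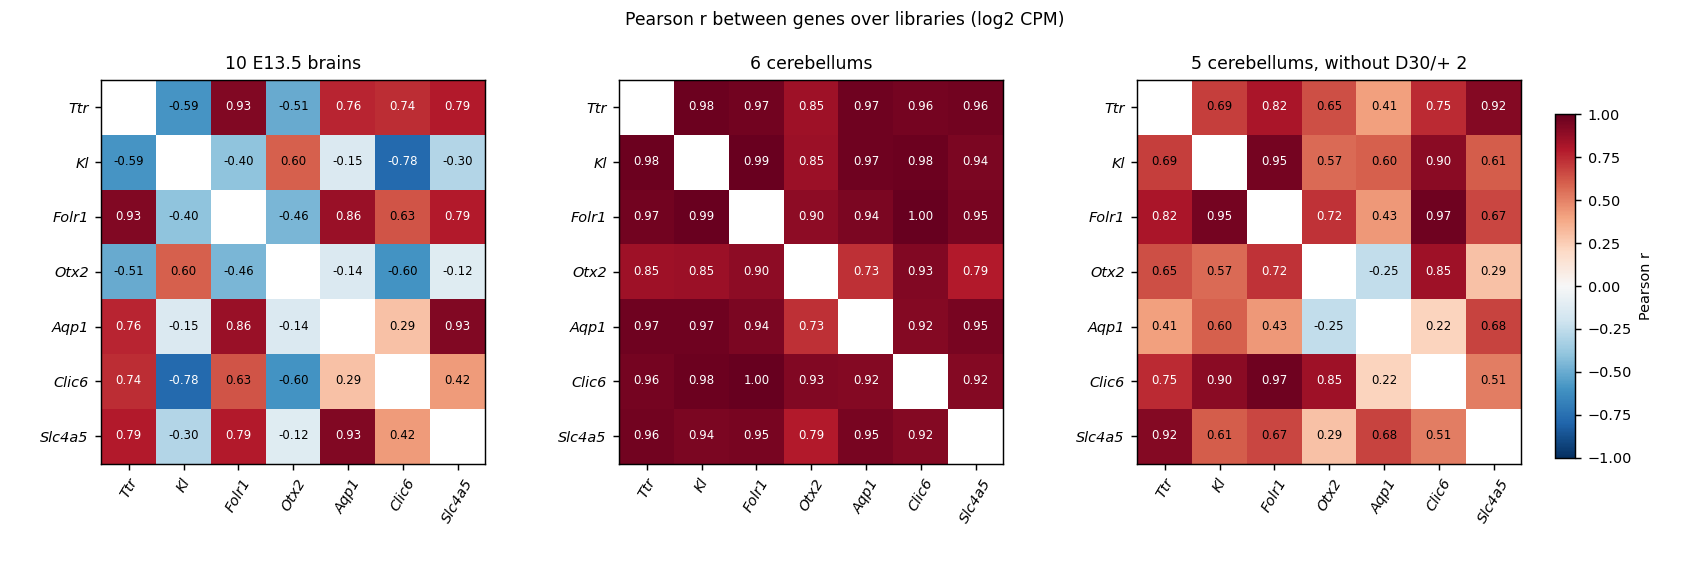
Pearson's r between the 7 genes on log2 CPM over the 10 E13.5 brains (left), over the 6 cerebellums (middle) and over the 5 cerebellums left without the second Wiz MommeD30/+ animal (right); red is positive and blue negative. Ttr, Folr1, Aqp1 and Slc4a5 form a block of 0.76 to 0.93 in the brains with Kl and Otx2 negative to it over all 10. In the male brains alone, not shown, Otx2 was positive to it. The cerebellum values, 0.73 to 0.996, fall when 1 library is left out.

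Each gene was then compared over the 10 brains with the mean log2 CPM of lists of marker genes, 98 relations in all. With the 26 other choroid plexus genes, r was 0.94 for Folr1 (permutation p = 3e-05, adjusted p = 0.00294), 0.92 for Ttr (permutation p = 0.00012, adjusted p = 0.00392), 0.88 for Aqp1 (permutation p = 0.00051, adjusted p = 0.0125) and 0.86 for Slc4a5 (permutation p = 0.00122, adjusted p = 0.0199). The matching rho values were 0.96, 0.96, 0.85 and 0.96. Left without the 2 brains farthest on each gene, r was 0.90, 0.94, 0.77 and 0.83, and in the 6 male brains it was 0.94, 0.88, 0.99 and 0.70. Kl and Otx2 had an r of -0.40 (permutation p = 0.259) and -0.35 (permutation p = 0.318) with the same genes. Clic6 had an r of 0.64 with them (permutation p = 0.0381, adjusted p = 0.311).

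Clic6 was instead the 1 gene past the threshold with the lists of multiciliated and ependymal genes and of dorsal midline genes. With the ciliated list, which holds Foxj1, the regulator of motile cilia, r was 0.90 (permutation p = 8e-05, adjusted p = 0.00392) and rho 0.90, with 0.82 after leaving out the 2 farthest brains and 0.86 in male brains. With the dorsal midline list, r was 0.84 (permutation p = 0.00111, adjusted p = 0.0199) and rho 0.81, with 0.51 after leaving out the 2 farthest brains and 0.80 in male brains. Whether these relations of Clic6 differ from those of Ttr was not tested. In the second female Wiz +/+ brain, where Clic6 was lowest, Rspo3, a Wnt agonist of the dorsal midline, was at 5.98 CPM against 17.2 to 28.8 CPM in the other 9. There 8 of the 16 dorsal midline genes and 6 of the 7 ciliated genes that passed the filter were below all other brains, as were 17.3% of all genes. So were 6 of 8 markers of the embryonic brain, while 7 of 8 midbrain and hindbrain markers and 5 of 10 erythroid genes were above all other brains, as were 16.3% of all genes. The part of the brain regions sampled in these differences was not tested.

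The genes most like the 7 were ranked by Pearson's r with the mean of their standardised log2 CPM, as a description. Over the 10 brains the first of 17613 genes was Hfe, the haemochromatosis gene, at 0.945, and those ranked after it included Ddx56, Tmem72, Lbp, Glis3, Tbc1d2, Tent2, Slc2a12 and Fbxl13, down to 0.853. Left without the 2 female Wiz +/+ brains, an alternative chosen after seeing the data, Hfe had an r of 0.930 and the first 10 genes 0.818 to 0.935. Of the other choroid plexus genes, Tmem72 and Lbp stood among the first 10 and 5 of 26 among the first 50. Over the 6 cerebellums the first 10 of 15972 genes had an r of 0.985 to 0.995: a gene with no symbol, ENSMUSG00000087560, then Idua, Kank2, Slc2a12, Slc16a12, Car12, Cab39l, Ak8, Cldn3 and Spint2. Of the other choroid plexus genes 10 of 26 were among the first 50. Without the second Wiz MommeD30/+ cerebellum those 10 genes had an r of 0.82 to 0.97. Slc2a12, a glucose transporter, was the 1 gene in both rankings.

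Promoter sequences are shown for Aqp1 and Slc4a5, which moved together in the brains, and for Kl and Otx2, which did not follow them. RefSeq windows of GRCm38.p6, from 250 bases before to 50 bases after an annotated start, were found for 4 of the 7 genes. Folr1 and Clic6 had none among the windows searched here, which does not show that RefSeq lists no start for them. Windows on the chromosome that holds Ttr were left out before the search, so none could be found for Ttr. The core bound by OTX proteins, TAATCC or its reverse complement GGATTA, was searched on both strands and is in capitals where it occurs. It was found in none of the windows of Aqp1, Slc4a5 and Kl and in 1 of the 4 windows of Otx2, 211 bases before that start. Of the 32817 windows of this length that were searched, with the chromosome of Ttr left out, 7.06% held it. The G and C content was 62.7% in Aqp1 and in Slc4a5, 67.3% in Kl and 51% in this Otx2 window, against a median of 52.7%. The Slc4a5 window, chr6:83237125-83237424 on the plus strand, lies inside the gene as GENCODE annotates it, and so does the printed Otx2 window. The Aqp1 window is chr6:55336049-55336348 and the Kl window chr5:150952357-150952656, both on the plus strand, and the Otx2 window is chr14:48665060-48665359 on the minus strand.
Aqp1: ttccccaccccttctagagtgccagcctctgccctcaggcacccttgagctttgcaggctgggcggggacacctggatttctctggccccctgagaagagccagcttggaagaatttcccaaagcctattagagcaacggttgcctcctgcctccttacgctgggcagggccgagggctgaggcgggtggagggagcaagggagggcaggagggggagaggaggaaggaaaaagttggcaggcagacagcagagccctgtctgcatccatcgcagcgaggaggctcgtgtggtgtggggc
Slc4a5: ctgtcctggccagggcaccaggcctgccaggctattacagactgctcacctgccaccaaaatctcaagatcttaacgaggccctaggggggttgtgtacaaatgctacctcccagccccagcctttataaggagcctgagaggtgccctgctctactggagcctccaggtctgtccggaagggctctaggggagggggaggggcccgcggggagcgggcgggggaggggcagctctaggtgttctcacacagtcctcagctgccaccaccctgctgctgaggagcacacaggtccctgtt
Kl: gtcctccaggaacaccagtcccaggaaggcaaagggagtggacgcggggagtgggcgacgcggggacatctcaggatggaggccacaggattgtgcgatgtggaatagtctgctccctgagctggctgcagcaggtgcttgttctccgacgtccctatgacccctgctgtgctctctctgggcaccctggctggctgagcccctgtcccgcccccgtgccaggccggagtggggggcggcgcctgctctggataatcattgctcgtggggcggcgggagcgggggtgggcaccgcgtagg
Otx2: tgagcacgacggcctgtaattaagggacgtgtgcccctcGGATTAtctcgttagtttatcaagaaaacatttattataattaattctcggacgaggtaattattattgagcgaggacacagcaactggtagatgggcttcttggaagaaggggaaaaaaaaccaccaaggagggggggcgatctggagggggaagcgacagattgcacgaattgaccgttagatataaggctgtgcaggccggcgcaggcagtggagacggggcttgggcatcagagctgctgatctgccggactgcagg

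Embryonic and adult levels were compared next, in the 3 male Wiz +/+ brains and the 3 male Wiz +/+ cerebellums, a contrast in which age and brain region cannot be told apart. 6 of the 7 genes differed past the threshold, an edgeR quasi-likelihood adjusted p of at most 0.05 with a fold change under 0.7 or over 1.3. Of all genes tested 69.5% did so. 5 of the 7 genes were lower in the E13.5 brain, as were 32.8% of all genes, and 1 was higher, as were 36.7%. Kl differed most, at 1.74, 1.53 and 1.43 CPM in the brains against 64.4, 67.6 and 59.6 CPM in the cerebellums. Its log2 fold change was -5.53 ± 0.088 (SE, adjusted p = 5.52e-17), a level in the brain of 0.0217 of that in the cerebellum. Ttr, at 234 to 288 CPM against 1618 to 1829 CPM, had a log2 fold change of -2.95 ± 0.067 (adjusted p = 2.47e-15). The groups did not overlap in either gene.

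Folr1 was at 3.92 to 4.22 CPM in the brains against 12.6 to 15.1 CPM in the cerebellums, a log2 fold change of -1.98 ± 0.095 (adjusted p = 2.25e-11). Slc4a5 had a log2 fold change of -1.41 ± 0.12 and Clic6 of -0.94 ± 0.097 (adjusted p = 3.2e-08 and 2.67e-07). Otx2 was the exception. It was at 62.8, 76.7 and 66.4 CPM in the brains against 23.0, 21.4 and 21.7 CPM in the cerebellums, a log2 fold change of 1.41 ± 0.064 (adjusted p = 1.18e-11). Aqp1 was at 9.04, 10.2 and 9.83 CPM against 10.5, 11.8 and 9.55 CPM, with overlapping groups. Its log2 fold change of -0.36 ± 0.090 (adjusted p = 0.00179) was within the fold limit, and no direction is drawn for it. In the matching contrast of Wiz MommeD30/+ males it was 0.24, and -0.06 without the second Wiz MommeD30/+ cerebellum.

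**Figure D4:**
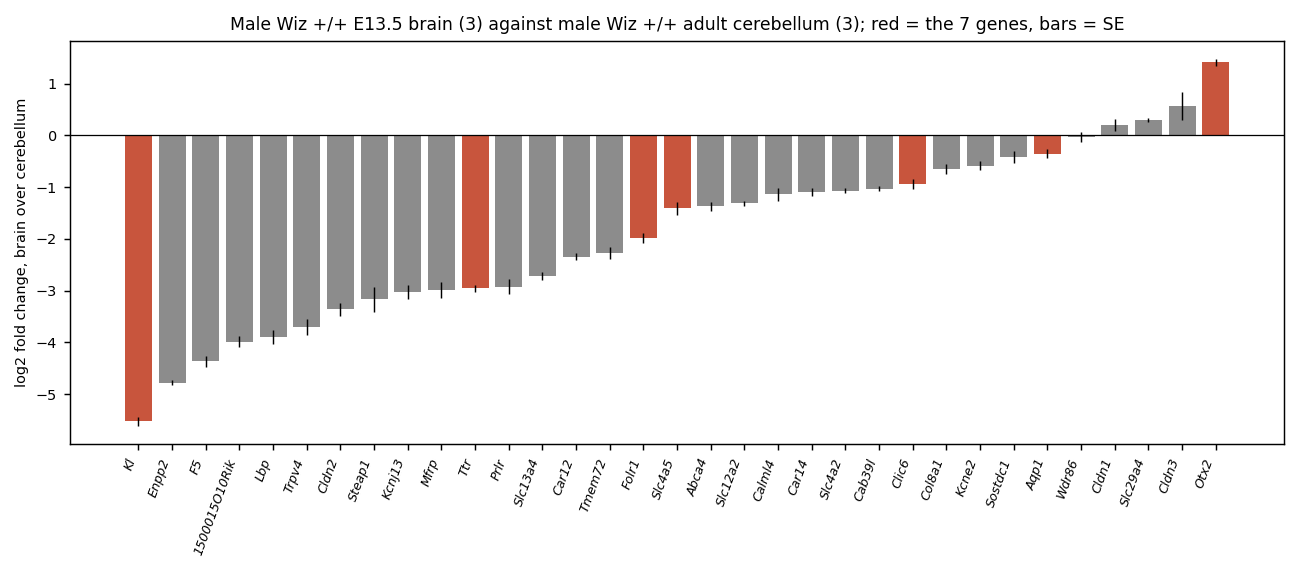
Log2 fold change (edgeR, bars are standard errors) of the 3 male Wiz +/+ E13.5 brains over the 3 male Wiz +/+ adult cerebellums for the 7 genes (red) and 26 other choroid plexus genes (grey), in order of size. Kl, at -5.53, is the lowest and Otx2, at 1.41, the highest, with most of the other choroid plexus genes under 0.

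The other choroid plexus genes were mostly lower in the embryo too. Of the 26, 21 were past the threshold as lower in the E13.5 brain, none as higher and 5 did not pass, with a median log2 fold change of -1.83 against 0.02 over all genes. Enpp2 had a log2 fold change of -4.78 ± 0.049, the clotting factor gene F5 of -4.36 ± 0.11, 1500015O10Rik of -3.99 ± 0.11 and Lbp, the lipopolysaccharide binding protein, of -3.90 ± 0.14. Under scaling by total counts alone the median of all genes moved to 0.226, and the same 6 of the 7 genes kept their side: Kl at -5.32, Ttr at -2.74, Folr1 at -1.77, Slc4a5 at -1.20, Clic6 at -0.73 and Otx2 at 1.62. In Wiz MommeD30/+ males without the second cerebellum, the values were -5.59, -2.96, -2.02, -1.28, -0.73 and 1.19 in the same order.

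The order of the levels within each tissue was taken per kilobase of the union of annotated exons. It depends on that length, and the lengths of the transcripts present were not measured. In the brains Ttr had a mean of 233 ± 53 CPM per kb (SD, n = 10), followed by Otx2 at 15.8 ± 1.9 CPM per kb. Both were above the next gene in every library. Clic6 at 6.76 ± 1.7 CPM per kb was above Aqp1 at 4.10 ± 0.80 CPM per kb in 9 of 10 libraries. Aqp1 was above Folr1 in every library, and Folr1 at 1.96 ± 0.35 CPM per kb was above Slc4a5 at 1.72 ± 0.37 CPM per kb in 9 of 10. Kl was the lowest at 0.173 ± 0.029 CPM per kb and lay under Slc4a5 in every library. In the cerebellums Ttr had a mean of 1384 ± 325 CPM per kb (SD, n = 6), above the others in every library. Clic6 at 9.56 ± 1.6, Kl at 6.45 ± 1.6 and Folr1 at 5.88 ± 1.6 CPM per kb followed in this order in all 6 libraries, although their ranges over the libraries overlapped. Folr1 was above Otx2 at 5.31 ± 0.55 CPM per kb in 5 of 6 libraries. Otx2 was above Aqp1 at 3.56 ± 0.97 CPM per kb in all 6, and Aqp1 was above Slc4a5 at 3.40 ± 0.55 CPM per kb in 4.

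Partners of these genes gave mixed directions in the same contrast, where 32.8% of all genes passed as lower and 36.7% as higher. Of 5 tested receptors and co-receptors that act with Klotho proteins, 1 was lower and 2 were higher in the E13.5 brain. Fgfr1, a receptor that Klotho binds, had a log2 fold change of -1.27 ± 0.038, and Fgfr4 of 2.29 ± 0.27, from levels of 0.27 to 0.39 CPM in the cerebellums. Among genes of folate uptake and use beside Folr1, Mthfd1, an enzyme of one-carbon metabolism, was lower at -0.70 ± 0.043. The transporters Slc19a1 and Slc46a1, at -0.25 ± 0.069 and -0.18 ± 0.058, were within the fold limit. Of 8 genes of thyroid hormone and retinol handling beside Ttr, 3 were lower and 5 higher. Dio2, which activates thyroxine, had a log2 fold change of -7.19 ± 0.11, and Dio3, which inactivates it, of 5.24 ± 0.34. Lrp2, the endocytic receptor megalin, had 5.86 ± 0.14, and Slco1c1, a thyroxine transporter, -1.89 ± 0.080.

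The effect of genotype was examined last. No member of the 7 passed the threshold between Wiz MommeD30/+ and Wiz +/+ in male brains, female brains or cerebellums, where 0.184%, 0.111% and 0.832% of all genes did so with edgeR. DESeq2's Wald test also called none of the 7. In cerebellums edgeR did not call Wiz itself, at 0.706-fold with an adjusted p of 9.9e-08, since it lay just within the fold limit. For the 7 genes the fold limit did not decide this there, as their lowest edgeR adjusted p was 0.253, for Aqp1. At an unadjusted p under 0.05 the count was 2 of 7 in male brains, 0 in female brains and 0 in cerebellums, against 8.45%, 6.4% and 19.9% of all genes. The precision differed between comparisons. Standard errors of the 7 log2 fold changes ran from 0.078 to 0.17 in male brains, from 0.16 to 0.39 in female brains and from 0.081 to 0.19 in cerebellums.

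In male brains Clic6 came nearest. It was at 18.5, 25.1 and 26.6 CPM in Wiz +/+ and at 30.5, 29.3 and 29.3 CPM in Wiz MommeD30/+. Its log2 fold change was 0.37 ± 0.10 with a 95% interval of 0.14 to 0.59 (edgeR unadjusted p = 0.00442, adjusted p = 0.307). Aqp1 had 0.22 ± 0.092 with an interval of 0.02 to 0.42 (adjusted p = 0.561), and its groups overlapped. Ttr had 0.10 ± 0.086 with an interval of -0.09 to 0.29. The other 4 genes ran from -0.04 for Otx2 to 0.20 for Slc4a5.

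In female brains 6 of the 7 log2 fold changes were negative and none passed. Clic6, the exception, was at 35.3 and 12.0 CPM in Wiz +/+ and at 30.6 and 27.3 CPM in Wiz MommeD30/+, with a log2 fold change of 0.29 ± 0.39 and an interval of -0.64 to 1.21. Without the first female Wiz +/+ brain it was 1.26 with an edgeR adjusted p of 9.36e-05, a call that then compares with a single Wiz +/+ library whose spread is taken from the other group. Ttr had -0.22 ± 0.32 with an interval of -0.96 to 0.52. With both sexes in 1 fit and sex as a covariate, none of the 7 passed (0.346% of all genes did, and 0 of 7 had an unadjusted p under 0.05). There Clic6 had 0.33 ± 0.20 and Ttr -0.03 ± 0.17. Without the 2 female Wiz +/+ brains the 2 genes had 0.36 ± 0.11 and 0.10 ± 0.12 (edgeR adjusted p = 0.371 and 0.898). With sex as a covariate, that fit takes the genotype difference from male brains alone, so it repeats the male contrast and adds no female evidence. The genotype by sex term called none of the 7 and 0.0% of all genes, and none of the 7 had an unadjusted p under 0.05 for it, as did 3.98% of all genes.

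In the cerebellum 6 of the 7 log2 fold changes were negative with all 6 libraries, and 1 was negative without the second Wiz MommeD30/+ animal. All 7 genes were lowest in that animal, so leaving it out had to raise each Wiz MommeD30/+ mean. The direction of this shift is therefore no separate result. Ttr had -0.18 ± 0.17 with an interval of -0.54 to 0.18, and 0.10 ± 0.042 with an interval of 0.01 to 0.19 without that library. Aqp1 had -0.39 ± 0.18 (edgeR unadjusted p = 0.0507, adjusted p = 0.253), and -0.09 ± 0.096 without it. Kl went from -0.18 to 0.10, Folr1 from -0.08 to 0.22, Clic6 from -0.04 to 0.15 and Slc4a5 from -0.12 to 0.06. Otx2 was at 0.05 and 0.17. None of the 7 passed in either fit, and the lowest adjusted p without the library was 0.122, for Otx2. The genotype by tissue term in males called none of the 7 (0.26% of all genes). For Aqp1 and Clic6 the effect in brain less that in cerebellum was 0.61 ± 0.26 and 0.42 ± 0.19 (edgeR adjusted p = 0.445 and 0.499), and 0.31 and 0.23 without the second Wiz MommeD30/+ cerebellum. Both had an unadjusted p under 0.05 with all libraries, as did 9.72% of all genes.

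**Figure D5:**
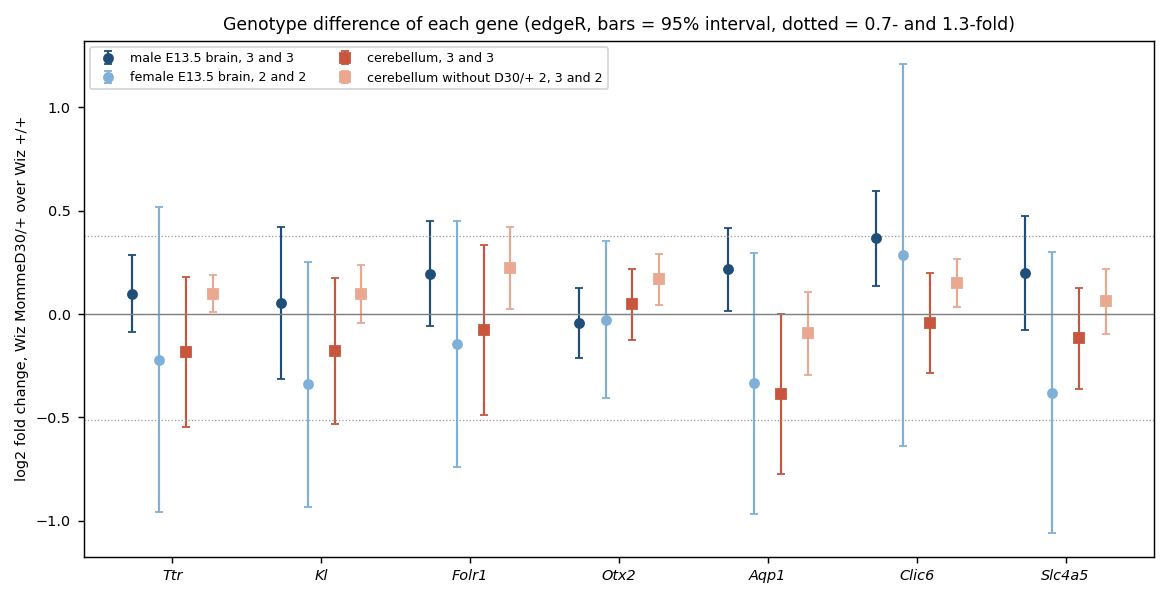
Log2 fold change of Wiz MommeD30/+ over Wiz +/+ for the 7 genes (edgeR, bars are 95% intervals, dotted lines mark 0.7- and 1.3-fold) in male brain, female brain, cerebellum and cerebellum without the second Wiz MommeD30/+ library. No gene passed the threshold, and for 5 genes the cerebellum value moves from under to above 0 when that library, the lowest for all 7, is left out.

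Among the 26 other choroid plexus genes, none passed in male or female brains. In the cerebellum 1 passed as lower, Trpv4, with a log2 fold change of -0.65 ± 0.13 (edgeR adjusted p = 0.00956). Without the second Wiz MommeD30/+ library it was -0.44 ± 0.092 (adjusted p = 0.0114), a fold change of 0.735 that is within the fold limit, and none of the 26 then passed. The 26 genes had a median log2 fold change of -0.13 in the cerebellum with all libraries, 22 of them negative, and of 0.04 without that library, 8 of them negative. That library was below every other cerebellum in 24 of the 26, so a rise on leaving it out was fixed for these. Over all genes tested with all libraries, 51.3% were negative. In male brains the median of the 26 was 0.14 with 6 negative, and in female brains -0.08 with 17 negative.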

How the data were processed

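PolyA RNA was sequenced as single-end reads by the authors, who mapped it to mm10 with Tophat 2.0.11 and counted reads over exons with htseq-count 0.6.1. The values the authors deposited are raw counts per Ensembl gene. Of 41388 identifiers, 40254 matched GENCODE M21, and 1134 did not, with no more than 0.171% of the counts in any library. The 3 ChIP-seq samples were not analysed here.

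Each comparison was fitted with edgeR 4.0.16 in R 4.3.3 on its own libraries, with TMM normalization, filterByExpr (minimum count 10) and its quasi-likelihood test, with p-values adjusted by Benjamini-Hochberg. The limits, taken from the study's methods, were an adjusted p of 0.05 together with 0.7-fold or 1.3-fold, and for interaction terms the adjusted p alone. Each standard error is the log2 fold change over the square root of F. Correlations used log2 CPM with a prior count of 2, with Python 3.11.15, numpy 2.4.6 and scipy 1.17.1. The fits and the permutation test were tested on simulated data.

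Named genes were the 7 genes, the 10 most correlated genes in each tissue, and up to 4 genes of a list by size of change or by level. Msx2, Slc12a2, Slc29a4, Rspo3, Foxj1, Kcnj13, Slc19a1 and Slc46a1 were named after their values were seen. Some genes that the rule names are not reported here. The genes and lists were chosen with earlier results of these data known. Alternatives were DESeq2 1.42.0 (size factors or its Wald test), total counts, other filters, no fold limit, a replicate block, covariates and leaving out libraries.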

Additional observations from a re-analysis of the deposited data

Results flagged for a closer look

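In groups of 4 to 10 libraries, a value was singled out when its gap to the nearest other library took more of the whole range than Dixon's 95% limit allows. The 7 genes were looked at in 4 sets of libraries, 28 cases in all, and chance alone singles out about 1 in 20 groups. 3 cases were the second Wiz MommeD30/+ cerebellum among all 6 cerebellums: Ttr at 878 CPM (gap of 0.731 of the range), Aqp1 at 4.48 CPM (0.669) and Kl at 33.0 CPM (0.626, against a limit of 0.625). The other case was the first female Wiz +/+ brain, whose Folr1 of 6.08 CPM was the highest of the 5 Wiz +/+ brains (0.799).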

How the results depend on the processing

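The count of the 7 genes past the threshold was unchanged by DESeq2's size factors, total-count scaling, DESeq2's Wald test, both other filters and the replicate block in each comparison those were run for. With no fold limit Aqp1 joined the other 6 genes between brain and cerebellum. The count moved from 0 to 1 in female brains without the first Wiz +/+ library (range over left-out libraries 0 to 1). Correlated pairs ranged from 3 to 7 in E13.5 brains (8 with all) and from 0 to 16 in cerebellums (17 with all) when each library was left out, and were 0 in the 6 male brains alone.

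Counts over all genes moved more. Male brains had 31 calls, 175 with no filter on low counts and 20 to 117 with a library left out (20 without the first Wiz +/+, 117 without the third Wiz MommeD30/+). Female brains had 19, 32 with DESeq2's Wald test, 3 with the replicate block and 0 to 261 with a library left out. Cerebellums had 133, 75 with DESeq2's Wald test, 211 with no filter, 839 with no fold limit, and 70 and 83 without the third Wiz +/+ and the first Wiz MommeD30/+ library. Both sexes had 61, 101 with no filter and 32 without the female Wiz +/+ libraries, where the genotype difference rested on males alone. Genotype by sex had 0 and 1 with DESeq2, and genotype by tissue 45, 122 with DESeq2 and 26 with the replicate block. The cause was not tested.

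Same-numbered libraries did not deviate together (r of -0.16 to -0.02 between their deviations from group means), which gave no sign that numbers pair libraries. Deviations from means of 2 to 3 libraries are tied to each other, and in female brains every r has the same size. A pairing by number is therefore not excluded. The replicate block changed no call among the 7 genes. Leaving out both female Wiz +/+ libraries, or the second Wiz MommeD30/+ cerebellum from the contrasts of tissue and of genotype by tissue, was chosen after seeing the data. Kl in E13.5 brain, at 25 to 98 counts, is limited by depth. With 2 to 3 libraries a group, a p-value measures the spread between these libraries, and nothing in the labels says that the animals came from separate litters.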

Other observations

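Genes of the dorsal midline, the embryonic origin of the plexus, moved in both directions between male Wiz +/+ E13.5 brains and male Wiz +/+ cerebellums. Of 16 tested, 9 passed as higher in the brain and 4 as lower with edgeR, against 36.7% and 32.8% of all genes, with a median log2 fold change of 0.97. Their summed level differed the other way, at 559 to 623 CPM in the brains and 1402 to 1435 CPM in the cerebellums. Zic1 and Zic2 made up most of the cerebellum sum. Their medians were 1039 and 241 CPM over the 5 cerebellums other than the second Wiz MommeD30/+ library. Lmx1b, a LIM homeobox factor, had a log2 fold change of 5.78 ± 0.13, and Rspo1, a Wnt agonist, had 4.92 ± 0.29. Of those that passed as lower, Msx2, a homeobox factor, had -2.89 ± 0.14. Wnt3a had no count in any Wiz +/+ cerebellum and 1.43 to 2.75 CPM in the brains.

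Erythroid genes were higher in Wiz MommeD30/+ cerebellums: of 6 tested, 4 passed as higher, where 0.832% of all genes passed in either direction, with Alas2, the erythroid enzyme of haem synthesis, at 1.08 ± 0.18 (edgeR adjusted p = 0.00325). Without the second Wiz MommeD30/+ cerebellum 3 of 6 passed (0.81% of all genes), with Alas2 at 0.73 ± 0.097 (adjusted p = 0.000323). In the Wiz MommeD30/+ brains of either sex none of the 10 passed.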
